A study of Homo sapiens with 12 samples.

Results

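The earliest transcript response to ibrutinib was read from the 4 libraries taken at 4 h, of 12 libraries in the series. They come from the established cell line REC1, derived from a human mantle cell lymphoma, a cancer of B cells. The 4 cultures received DMSO (the vehicle), SPX5551, ibrutinib, or ibrutinib with SPX5551 (the combination), with 1 library each, and no group carried a genetic change. Ibrutinib is a covalent inhibitor of the kinase BTK, and SPX5551, written pol5551 in the column headers, is presented by the series title as an inhibitor of the chemokine receptor CXCR4. The members were chosen by time and treatment label alone. The ibrutinib and combination libraries (exposed) were set against the DMSO and SPX5551 libraries (unexposed), with SPX5551 exposure as a block. All 13782 genes with enough counts entered the comparison. The sources used here state no doses, and all libraries come from a single cell line.

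B cells sense antigen through the B-cell receptor, whose signal passes through the kinases LYN, SYK and BTK to PLCG2. From there it branches to calcium and NFAT, to the MAP kinases ERK and JNK, and to NF-kappaB. Within minutes to hours these branches switch on immediate early transcription factors such as EGR1 and NR4A1, MYC, chemokines and cytokines such as CCL3, CCL4 and TNF, the activation markers CD69 and CD83, and inhibitors that feed back on the same signal, among them DUSP2 and NFKBIA. Many mantle cell lymphomas depend on this receptor signal, and BTK inhibitors are used to treat them.

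The 4 libraries held 19888090 to 22951827 counts. Values are given below as counts per 1e6 of the scaled library total (CPM), which allows a gene to be compared between libraries but not with another gene of different length. All 7 B-cell markers were detected, with a summed level of 3885 to 4449 CPM, the lowest in the combination library. Of 8 T-cell markers, 5 were under 1 CPM in all 4 libraries, and the sum over the list was 6.601 to 9.46 CPM. All 7 myeloid markers were under 1 CPM, with S100A8, S100A9 and FCGR3A at 0. Stromal and epithelial markers summed to 48.5 to 60.9 CPM, led by KRT18, with COL1A2 at 0. The libraries also leaned differently with transcript length. Spearman's rho across genes, between exon length and the deviation from the 4-library mean, was -0.21 in DMSO, -0.18 in SPX5551, 0.33 in ibrutinib and 0.04 in the combination. Both exposed libraries therefore leaned to longer transcripts than both unexposed ones. Column headers match the sample titles and treatments and were followed, although the free-text descriptions assign each column to a different treatment. By the descriptions exposed and unexposed columns change places, so the direction of the comparison of exposed with unexposed libraries would turn by construction. The SPX5551 block would change as well, so the calls and the pairs below would not simply be mirrored.

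At 4 h, TNF, EGR3, CCL3L3 and EGR1 had the largest decreases with ibrutinib exposure, with log2 fold changes of -4.12, -4.11, -3.92 and -3.55. TNF, EGR3 and EGR1 belong to a list of B-cell receptor early response genes, of which 13 of 24 tested were lower and 11 did not pass. In the fit of the 4 libraries, 302 genes passed an adjusted p of 0.05 (2.19% of all tested; edgeR's quasi-likelihood test with Benjamini-Hochberg adjustment over all genes). Of these, 170 were lower (1.23%) and 132 higher (0.958%), and 2097 genes had an unadjusted p under 0.05. That fit has 1 residual degree of freedom, so its spread is almost entirely the average over genes. A second fit took the spread from all 12 libraries and found 25 genes lower (0.181%) and 0 higher (0%), with 379 lower and 506 higher at an unadjusted p under 0.05. All 25 were among the 170. Without the libraries of 8 h ibrutinib and of 12 h SPX5551, the second fit gave 136 lower and 161 higher. The libraries left at 8 and 12 h are as many as the terms fitted there, so its spread comes from the 4 h libraries alone. Scaling also moved the counts, with 62 lower and 13 higher by the size factors of DESeq2 and 36 and 8 by library size alone. Leaving out SPX5551 or the combination leaves ibrutinib minus DMSO as the 4 h estimate, and leaving out DMSO or ibrutinib leaves the combination minus SPX5551. These single comparisons are described below. No treatment has a replicate culture at 4 h, so p-values reflect the spread between these libraries alone.

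The 25 genes lower in both fits were named after their values were seen. Their log2 fold changes ran from -0.86 to -4.12, with a median of -1.42. In each of them the exposed and unexposed libraries did not overlap, where 21.3% of all tested genes were lower without overlap. All 25 were also past 1.5-fold in both the ibrutinib minus DMSO and the combination minus SPX5551 pair, as were 1.44% of all tested genes. The 25 were called on these same libraries, so their separation in both respects is in part built in. Of the 25, 10 belong to a list of B-cell receptor early response genes and 5 to a list of NF-kappaB targets and feedback genes.

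**Figure D1:**
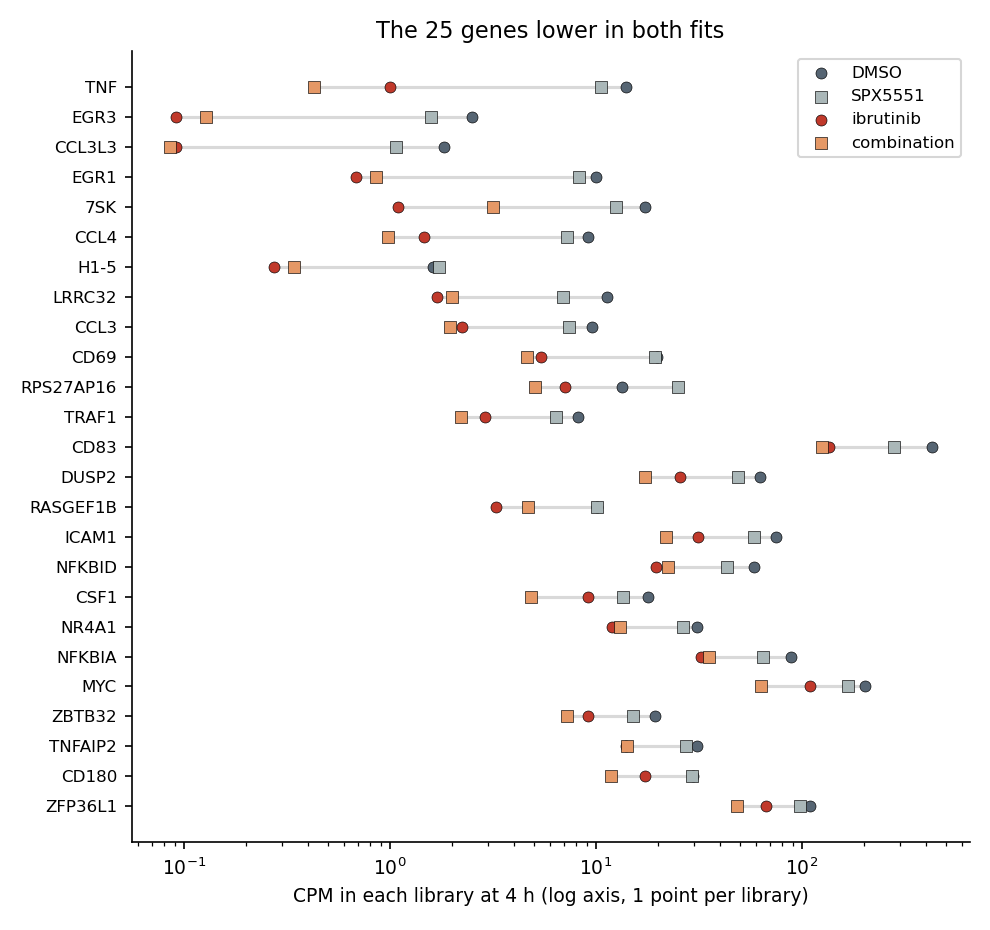
CPM (log axis) of the 25 genes lower in both fits, in rows ordered by log2 fold change, with 1 point per library at 4 h. Red and orange points (ibrutinib, combination) lie to the left of both grey points (DMSO, SPX5551) in each of the 25 rows, from TNF (1.004 and 0.426 against 13.9 and 10.6 CPM) to ZFP36L1 (67.0 and 48.4 against 110 and 97.4 CPM).

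The immediate early transcription factors gave some of the largest decreases. EGR1, a zinc finger factor induced through ERK (chromosome 5, 138465490 to 138469315, hg38), stood at 9.98 CPM in DMSO, 8.22 in SPX5551, 0.685 in ibrutinib and 0.852 in the combination. Both exposed libraries lay far below both unexposed ones, and the log2 fold change was -3.55 ± 0.29 (SE; adjusted p = 2.6e-17, edgeR). Its relative EGR3 was scarce, with 48 counts in DMSO, 31 in SPX5551, 2 in ibrutinib and 3 in the combination. Per scaled library total, EGR3 was 18.4-fold lower with ibrutinib exposure (exact binomial 95% interval 7.57 to 58.3, covering counting error only; log2 fold change -4.11 ± 0.59, adjusted p = 3.3e-07, edgeR).

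NR4A1, an orphan nuclear receptor that reports recent antigen receptor signals, was at 30.9 CPM in DMSO, 26.5 in SPX5551, 12.0 in ibrutinib and 13.1 in the combination. The exposed libraries were nearly equal, and the log2 fold change was -1.19 ± 0.15 (adjusted p = 7.3e-09, edgeR). MYC, the growth-promoting transcription factor, was at 203 CPM in DMSO, 167 in SPX5551, 110 in ibrutinib and 63.0 in the combination. The 2 groups did not overlap, and the combination library was well below the ibrutinib library. The log2 fold change of MYC was -1.14 ± 0.11 (adjusted p = 7.4e-14, edgeR). The AP-1 genes FOS (-1.01), JUN (-0.65), FOSB (-0.46) and JUNB (0.29) did not pass.

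Of genes for secreted factors, TNF, CCL4, CCL3, CCL3L3 and CSF1 were among the 25. TNF, an inflammatory cytokine (chromosome 6, 31575567 to 31578336, hg38), went from 13.9 CPM in DMSO and 10.6 in SPX5551 to 1.004 in ibrutinib and 0.426 in the combination. In the 4-library fit it had the largest decrease of all genes tested, at -4.12 ± 0.28 on the log2 scale (adjusted p = 5.1e-22, edgeR). The chemokine CCL4 was at 9.09 CPM in DMSO, 7.26 in SPX5551, 1.46 in ibrutinib and 0.979 in the combination (-2.75 ± 0.27, adjusted p = 2.8e-13, edgeR). CCL3 followed the same order, at 9.56, 7.41, 2.24 and 1.96 CPM (-2.01 ± 0.25). CCL3L3, a near copy of CCL3, had 35 and 21 counts in the unexposed and 2 and 2 in the exposed libraries, a 16.3-fold decrease (exact binomial 95% interval 6.03 to 62.0). CCL3 with CCL3L3, and CCL4 with CCL4L2 (-1.96), are near-identical pairs, and how reads were divided within each pair is uncertain. CSF1, the macrophage growth factor, was at 17.9 CPM in DMSO, 13.5 in SPX5551, 9.17 in ibrutinib and 4.85 in the combination, a log2 fold change of -1.20 ± 0.19. LTA, the lymphotoxin encoded next to TNF, was at 6.55, 7.10, 3.33 and 2.68 CPM and passed in the 4-library fit only (-1.19 ± 0.25; adjusted p = 0.0013, and 0.073 with the 12-library spread, edgeR). LTB, the partner of lymphotoxin at the cell surface, did not pass (-0.36, adjusted p = 0.099).

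Genes for the surface proteins CD69, CD83, ICAM1, LRRC32 and CD180 were also among the 25. CD69, which retains activated lymphocytes in tissue, was at 19.7 CPM in DMSO, 19.3 in SPX5551, 5.39 in ibrutinib and 4.64 in the combination. Within each group the 2 libraries were nearly equal, and the log2 fold change was -1.96 ± 0.19 (adjusted p = 2.2e-14, edgeR). CD83, a marker of activated B cells and dendritic cells, was at 426, 281, 135 and 124 CPM in the same order (-1.42 ± 0.11, adjusted p = 1.4e-18, edgeR). ICAM1, the adhesion ligand of the integrin LFA-1, was at 74.8 CPM in DMSO, 58.6 in SPX5551, 31.4 in ibrutinib and 21.97 in the combination (-1.33 ± 0.12). LRRC32, which anchors latent TGF-beta at the cell surface, was at 11.3, 6.90, 1.69 and 2.001 CPM (-2.26 ± 0.26). CD180, which modulates Toll-like receptor signals in B cells, was at 29.6, 29.2, 17.3 and 11.8 CPM (-1.04 ± 0.15). For each of these 5 genes the higher exposed library stayed below the lower unexposed one.

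DUSP2, NFKBIA and NFKBID, which act back on the signal, were also among the 25. DUSP2, which dephosphorylates and silences MAP kinases, was at 62.6 CPM in DMSO, 48.9 in SPX5551, 25.7 in ibrutinib and 17.2 in the combination (-1.39 ± 0.13, adjusted p = 3.0e-15, edgeR). NFKBIA, which encodes the NF-kappaB inhibitor I-kappa-B alpha and is itself an NF-kappaB target (chromosome 14, 35401511 to 35404749, hg38), was at 88.1, 64.9, 32.3 and 35.5 CPM (-1.16 ± 0.12, adjusted p = 1.9e-12, edgeR). NFKBID, a nuclear relative of NFKBIA, was at 58.5, 43.0, 19.5 and 22.4 CPM (-1.26 ± 0.13). In both of these the ibrutinib library was slightly below the combination library, unlike in DUSP2. Of other feedback genes of the lists, TNFAIP3 (-0.73) and DUSP5 (-0.67) passed in the 4-library fit only. NFKBIE (-0.37), NFKBIZ (-0.33), NFKBIB (-0.19), SPRY1 (-0.53), SPRY2 (-0.11) and DUSP6 (0.39) did not pass. TRAF1 (-1.51), an adaptor of TNF receptors, TNFAIP2 (-1.05), the RNA-decay factor ZFP36L1 (-0.86), the Ras-family exchange factor RASGEF1B (-1.35) and the transcriptional repressor ZBTB32 (-1.07) complete the protein-coding genes among the 25 apart from a linker histone.

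That histone, H1-5 (-2.42), stood beside the small nuclear RNA 7SK, which restrains the elongation factor P-TEFb, and the ribosomal pseudogene RPS27AP16. 7SK was at 17.2 CPM in DMSO, 12.5 in SPX5551, 1.10 in ibrutinib and 3.15 in the combination (-2.82 ± 0.24, adjusted p = 3.4e-16, edgeR). H1-5 was at 1.61, 1.73, 0.274 and 0.341 CPM in the same order. 7SK and replication-dependent histone transcripts such as H1-5 lack a poly(A) tail, and the libraries were made from poly(A)-selected RNA. Small noncoding RNAs took 1.53, 1.19, 1.15 and 1.37% of counts in DMSO, SPX5551, ibrutinib and the combination, and histone genes 0.190, 0.194, 0.180 and 0.218%. Whether poly(A) selection differed between libraries was not tested. RPS27AP16 was at 13.4, 25.02, 7.07 and 5.07 CPM, with the unexposed libraries further apart than the exposed ones (-1.61 ± 0.20), and its reads may belong to other copies of the gene.

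Across the whole list of B-cell receptor early response genes, 13 of the 24 tested were lower and 0 higher in the 4-library fit (1.23% and 0.958% of all genes). With the 12-library spread 10 were lower (0.181% of all genes). The median log2 fold change of the 24 was -0.99, against 0.005 over all 13782 genes, and 18 of the 24 had exposed libraries below unexposed ones without overlap (21.3% of all genes). JUNB, DUSP6, NR4A2, FOSB, SPRY1 and SPRY2 overlapped. The median was -1.02 for ibrutinib minus DMSO and -0.90 for the combination minus SPX5551. Besides the 10 genes above, LTA, the MAP kinase phosphatase DUSP5 (-0.67) and the immediate early gene IER2 (-0.54) passed in the 4-library fit. EGR2 and DUSP4 had too few counts to be tested. The lists were written with earlier results of these libraries known, so their direction is not independent evidence.

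Of the 22 NF-kappaB targets and feedback genes, 12 were lower and 1 higher in the 4-library fit (1.23% and 0.958% of all genes). With the 12-library spread 5 were lower (0.181% of all genes). Their median was -0.49, with -0.58 in the ibrutinib and -0.44 in the combination pair. Those lower in the first fit alone were the chemokine CXCL10 (-0.89), the apoptosis inhibitor BIRC3 (-0.79), the ubiquitin-editing inhibitor TNFAIP3 (-0.73), the survival gene BCL2A1 (-0.67), the plasma cell and lymphoma factor IRF4 (-0.57), the costimulatory receptor CD40 (-0.56) and the subunit NFKB2 (-0.41). CXCL10 was at 113 CPM in DMSO, 63.1 in SPX5551, 59.6 in ibrutinib and 34.9 in the combination, so SPX5551 and ibrutinib alone were nearly equal. The gene that rose was the subunit REL, at 37.8, 32.1, 46.8 and 47.1 CPM (0.43 ± 0.12, adjusted p = 0.038, edgeR), which did not pass with the 12-library spread (adjusted p = 0.80). The other subunits NFKB1 (-0.27), RELA (0.11) and RELB (0.02) did not pass.

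**Figure D2:**
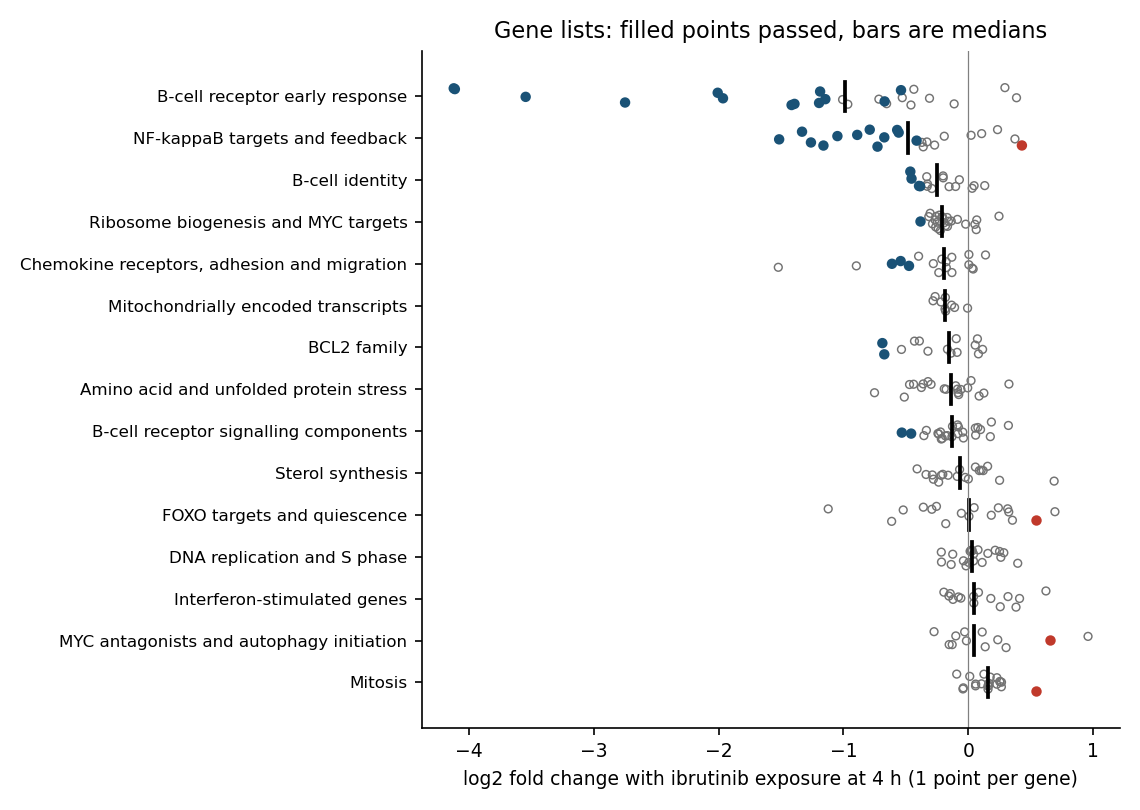
Log2 fold change with ibrutinib exposure at 4 h (x axis, 4-library fit) for every tested member of 15 gene lists (rows). Filled points passed, blue lower and red higher, open points did not, and the vertical bar is the list median, which is -0.99 for the B-cell receptor early response, -0.49 for NF-kappaB targets and between -0.25 and 0.16 for the other lists.

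Promoters of 17 of the 25 genes were found in the RefSeq promoter table (GRCh38.p14), and their 250 bases before the start were searched on both strands for motifs of the factors at the ends of these signal branches. A loose NF-kappaB pattern, open at its central bases, was present in 12 of 17 (70.6%), against 69.6% of all tested genes with a promoter, 64.0% of the lower and 80.2% of the higher genes. The share was thus near the background. The cyclic AMP response element TGACGTCA was found in 0 of 17 and in 3.01% of all tested genes, and the AP-1 pattern TGANTCA in 1 of 17 (CD180) and in 3.52%. A CArG box, the serum response element motif, was found in 1 of 17, EGR1, and in 0.99% of all tested genes. Among promoters of all 170 lower genes it was in 4 of 125, and among those of the higher genes in 0 of 111. The promoters of EGR1, TNF and NFKBIA are shown because these genes stand for the immediate early, cytokine and feedback groups. Capitals mark the matches, which are the NF-kappaB pattern in each of them and, in EGR1, a pair of CArG boxes that follow it. They lie at chr5:138465229-138465478 (plus strand), chr6:31575315-31575564 (plus strand) and chr14:35404750-35404999 (minus strand).
EGR1: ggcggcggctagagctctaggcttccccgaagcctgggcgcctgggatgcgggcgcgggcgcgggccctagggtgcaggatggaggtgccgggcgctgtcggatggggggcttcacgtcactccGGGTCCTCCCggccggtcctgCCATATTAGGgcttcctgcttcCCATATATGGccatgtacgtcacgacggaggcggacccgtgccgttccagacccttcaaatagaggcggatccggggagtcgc
TNF: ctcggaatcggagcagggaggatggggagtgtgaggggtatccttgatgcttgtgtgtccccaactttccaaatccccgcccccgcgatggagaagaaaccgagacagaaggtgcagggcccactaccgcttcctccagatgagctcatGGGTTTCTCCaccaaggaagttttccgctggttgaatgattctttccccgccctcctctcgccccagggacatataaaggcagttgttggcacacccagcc
NFKBIA: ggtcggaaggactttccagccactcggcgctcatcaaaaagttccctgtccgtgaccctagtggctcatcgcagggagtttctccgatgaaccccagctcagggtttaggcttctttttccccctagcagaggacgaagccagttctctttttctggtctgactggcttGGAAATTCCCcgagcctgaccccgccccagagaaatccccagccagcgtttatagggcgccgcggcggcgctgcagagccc

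The remaining 145 lower genes passed in the 4-library fit only. Of 14 BCL2 family genes, BCL2L1 (BCL-XL), a guard against apoptosis, and BCL2A1 were lower and 0 higher, with a list median of -0.15. BCL2L1 was at 82.3 CPM in DMSO, 74.8 in SPX5551, 50.8 in ibrutinib and 46.7 in the combination (-0.69 ± 0.11, adjusted p = 1.4e-05, and 0.083 with the 12-library spread, edgeR), a difference of the same size in both pairs. MIR17HG, from which a MYC-activated cluster of microRNAs is cut, was at 121, 115, 76.5 and 50.9 CPM (-0.92 ± 0.11), and NFATC1, the calcium-regulated factor, at 78.3, 71.0, 53.9 and 43.6 CPM (-0.62 ± 0.11). Both were lower in each exposed library, and both were named after their values were seen. Of 25 ribosome biogenesis and MYC target genes, 1 was lower, the nucleolar protein gene NOP16 (-0.39 ± 0.11, adjusted p = 0.028, edgeR), and 0 were higher. The median of that list was -0.21, with 21 of 25 values below 0 (6772 of all 13782), but 24 members did not pass, and 1 in 25 stands against 1.23% of all genes called lower.

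In some other lists the median lay further below 0 in the combination pair than in the ibrutinib pair. Of 16 B-cell identity genes, 4 were lower (1.23% of all genes), namely the transcription factors IKZF3 (-0.46), EBF1 (-0.45), SPIB (-0.39) and IKZF1 (-0.39). The list median was 9.6e-05 in the ibrutinib minus DMSO pair and -0.49 in the combination minus SPX5551 pair. IKZF1 was at 330 CPM in DMSO, 355 in SPX5551, 334 in ibrutinib and 206 in the combination, so only the combination library was low. Its log2 fold change was 0.025 without the SPX5551 and 0.032 without the combination library. Both of these values are the comparison of ibrutinib minus DMSO. The migration list had 3 of 18 genes lower, with pair medians of -0.05 and -0.44. They were GPR183 (-0.61), which steers B cells along oxysterol gradients, CCR7 (-0.54), the receptor that guides lymphocytes to lymph nodes, and the hyaluronan receptor CD44 (-0.48). GPR183 was at 25.7, 26.8, 24.2 and 11.9 CPM, again low in the combination alone. Of 25 B-cell receptor signalling components, the Fc receptor-like gene FCRL2 (-0.53) and the phosphatase gene PTPN6 (-0.46) were lower, with pair medians of 0.04 and -0.28. All of these 9 genes but IKZF1 were below 0 in both pairs, from GPR183 (-0.08 for ibrutinib minus DMSO and -1.16 for the combination minus SPX5551) to SPIB (-0.31 and -0.48). None of the 9 passed with the 12-library spread, and a difference between the pairs was not shown for any of them (adjusted p = 0.9999 each for the interaction, edgeR).

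The targets of the agents were not among the genes called. BTK was at 306 CPM in DMSO, 316 in SPX5551, 304 in ibrutinib and 265 in the combination (-0.13 ± 0.11, adjusted p = 0.60, edgeR). CXCR4 was at 17.4, 21.8, 16.1 and 16.1 CPM (-0.28 ± 0.16, adjusted p = 0.40). CCND1, the cyclin D1 gene that defines mantle cell lymphoma, was at 1626, 1551, 1641 and 1535 CPM (-7.7e-04 ± 0.11). CXCL12 had too few counts to be tested. No member passed among 19 sterol synthesis genes, 20 stress genes, 15 interferon-stimulated genes, 21 DNA replication genes and 9 mitochondrially encoded genes, whose medians were -0.07, -0.14, 0.04, 0.03 and -0.18. The mitochondrially encoded gene MT-ATP8, which that list does not hold, was called lower and is described below.

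The 132 higher genes changed by less than the lower ones at the median. Their median log2 fold change was 0.46, against -0.56 for the 170 lower genes, and 3 of the 132 but 41 of the 170 exceeded 2-fold. Of the 132, 129 lay above the unexposed libraries without overlap (22.7% of all tested genes did), and 154 of the 170 lay below them (21.3%). Both groups were called on these same libraries, so this separation is in part built in. Past 1.5-fold in both pairs were 6 of the 132 and 56 of the 170. With the 12-library spread, 0 of the 132 and 25 of the 170 were called. Without the libraries of 8 h ibrutinib and 12 h SPX5551, all 132 and 135 of the 170 were called. The spread of that fit comes from the 4 h libraries alone, as in the 4-library fit, so this return was largely built in. The median exon length of the higher genes was 8706 bases, against 4700 for all tested genes and 3314 for the lower genes. Across genes, rho between the log2 fold change and exon length was 0.26, with 0.33 in the ibrutinib and 0.12 in the combination pair. With the length trend removed, 20 genes were lower and 0 higher, and 18 of the 25 genes above still passed. The other 7 were CCL3L3 (-3.80), H1-5 (-2.23), RASGEF1B (-1.43), RPS27AP16 (-1.41), CSF1 (-1.23), CD180 (-1.07) and ZBTB32 (-1.02), with the fold change after removal in brackets. DESeq2 called 31 lower and 0 higher.

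The 3 higher genes past 2-fold were scarce transcripts, SDK1 (1.88), POTEF (1.44) and ENSG00000274272 (1.10), named after their values were seen. POTEF belongs to a family of near-identical copies, so its reads are uncertain. Among genes with a mean log2 CPM of at least 2, the largest increases included RAVER1, a splicing co-regulator (14.9 CPM in DMSO, 10.0 in SPX5551, 20.9 in ibrutinib and 25.9 in the combination; 0.93 ± 0.17, adjusted p = 8.9e-05, edgeR), and ZBED6, a transcription factor derived from a transposon (4.57, 3.96, 8.08 and 8.39 CPM; 0.95 ± 0.22). The endocytic kinase AAK1 (0.90), ZCCHC24 (0.90), MAP1S (0.81), the endoplasmic reticulum protein WFS1 (0.80), CRTC1 (0.76), USP53 (0.74), ARHGAP33 (0.74) and RP2 (0.73) followed. From the lists, ULK1, a kinase that starts autophagy, was at 15.2, 14.2, 17.6 and 30.0 CPM (0.65 ± 0.16), so the increase lay mostly in the combination library. SESN3, a FOXO target that restrains growth signals, was at 13.98, 20.6, 21.5 and 28.4 CPM (0.54 ± 0.15), and the kinetochore motor CENPE at 113, 112, 146 and 183 CPM (0.54 ± 0.11). SESN3 was the only one of 17 FOXO genes to pass in either direction, ULK1 of 12 MYC antagonist and autophagy genes, and CENPE of 20 mitosis genes. Of all tested genes, 2.19% passed. Among the 20 mitosis genes, 12 lay above the unexposed libraries without overlap, as did 22.7% of all tested genes. None of RAVER1, ZBED6, ULK1, SESN3 and CENPE passed with the 12-library spread (adjusted p = 0.096, 0.75, 0.60, 0.60 and 0.68).

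Whether both exposed libraries showed the same changes was read from the 2 pairs, which share no library. Ibrutinib was past 1.5-fold below DMSO in 772 genes (5.6%) and the combination past 1.5-fold below SPX5551 in 857 (6.22%). The pairs had 199 such genes in common, which is 25.8% of the first list and 23.2% of the second. In the other direction 458 (3.32%) and 962 (6.98%) genes were higher, with 110 in common (0.798% of all tested), or 24.0% and 11.4%. Opposite directions past 1.5-fold were seen in 109 genes lower with ibrutinib and higher with the combination, and in 70 the other way round. The sign was the same in 60.3% of genes, and Pearson's r across genes was 0.21 (Spearman's rho 0.22; the points share libraries, and genes are not independent replicates). Among the 9995 genes with a mean log2 CPM of at least 2, 45 were lower and 6 higher in both pairs, and r was 0.32. For comparison, the 2 SPX5551 pairs (SPX5551 minus DMSO, combination minus ibrutinib) had 106 genes lower and 113 higher past 1.5-fold in both.

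The called genes were chosen on both pairs together, so their agreement is in part built in. Of the 170 lower genes, 167 were below 0 in both pairs (29.8% of all tested genes were) and 56 past 1.5-fold in both. Of the 132 higher genes, 129 were above 0 in both (30.6% of all tested genes were). Past 1.5-fold in both were 6 of the 132. Each pair was also fitted alone, with a 4 h library left out. The spread of such a fit comes from the 8 and 12 h libraries alone, and it has no replicate at 4 h. For ibrutinib minus DMSO and the combination minus SPX5551, TNF was at -3.77 and -4.61 and EGR1 at -3.84 and -3.26. 7SK was at -3.95 and -1.98, CCL4 at -2.62 and -2.88, and CD69 at -1.86 and -2.06. DUSP2 was at -1.27 and -1.50, and ICAM1 at -1.24 and -1.41. MYC, CSF1, CD180 and RPS27AP16 were lower in the combination pair than in the ibrutinib pair. CD83, NFKBIA, NFKBID, NR4A1, LRRC32 and CCL3 were lower in the ibrutinib pair. Each of these 10 was below 0 in both pairs, and the interaction did not pass for any of them.

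**Figure D3:**
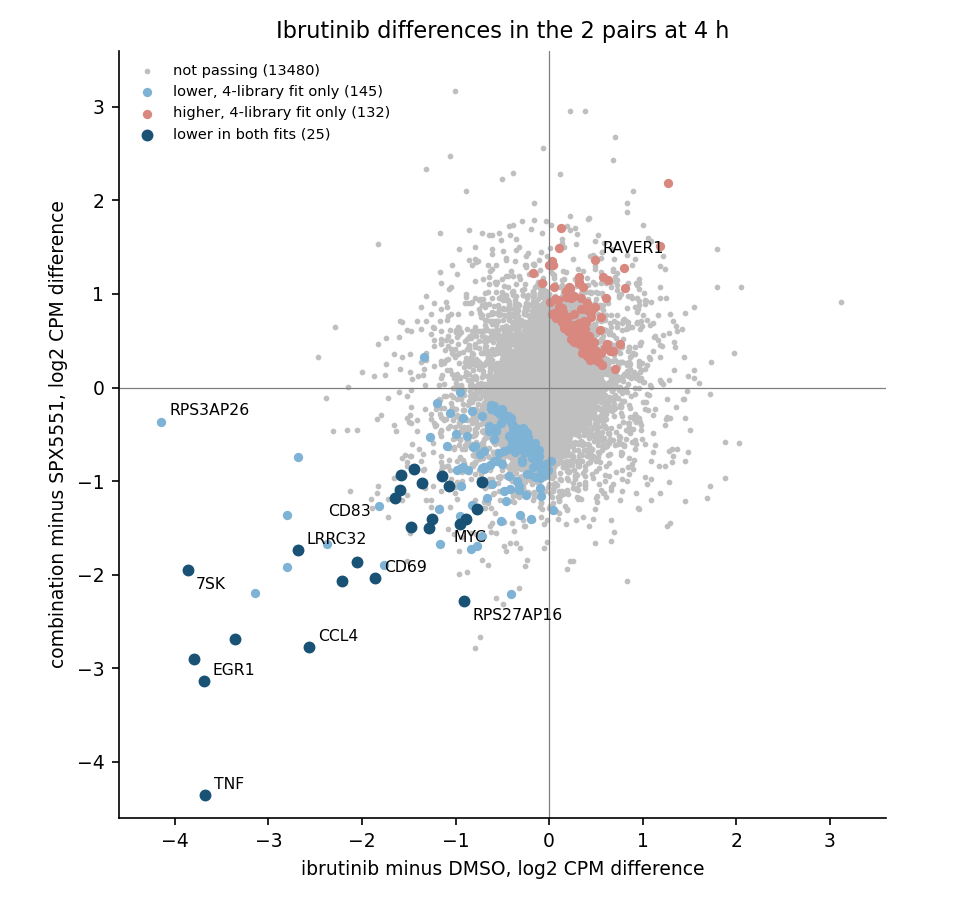
Each point is a gene tested at 4 h, with the log2 CPM difference of ibrutinib minus DMSO on the x axis and of the combination minus SPX5551 on the y axis. The 25 genes lower in both fits (dark blue) lie in the lower left quadrant out to TNF (-3.67 and -4.35), the 132 higher genes (red) reach 1.27 on the x and 2.19 on the y axis (SDK1), and RPS3AP26 is low in the ibrutinib pair alone (-4.15 and -0.36).

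The difference between the pairs was tested as an interaction at 4 h, with the spread of the other libraries. It passed for 2 genes (0.0145%; 402 at an unadjusted p under 0.05). The ribosomal pseudogene RPS3AP26 was at 131 CPM in DMSO, 139 in SPX5551, 7.30 in ibrutinib and 108 in the combination. Only the ibrutinib library was low, and the effect of ibrutinib was 3.81 higher on the log2 scale with SPX5551 than without (adjusted p = 0.0081, edgeR). MRPL12, a mitochondrial ribosomal protein gene, was at 4.68, 1.22, 2.28 and 11.8 CPM, high in the combination, with an interaction of 4.30 (adjusted p = 0.0081). RPS3AP26 is counted among the 170 lower genes (-2.02), although its decrease came from 1 library.

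Another call that rests on 1 library was that of MT-ATP8, a mitochondrially encoded subunit of ATP synthase. It was at 517 CPM in DMSO, 176 in SPX5551, 205 in ibrutinib and 220 in the combination, so the DMSO library alone was high. It was called lower (-0.51, adjusted p = 0.032, edgeR) with pair differences of -1.34 and 0.33, and its interaction did not pass (adjusted p = 0.25). Mitochondrial transcripts took 8.74% of counts in DMSO and 7.05, 6.94 and 7.55% in SPX5551, ibrutinib and the combination. Their part in this result was not tested. JUNB (8.31, 3.91, 4.88 and 10.1 CPM), MZT2B (19.7, 11.5, 14.01 and 31.9 CPM) and MIF (16.4, 7.41, 11.5 and 22.2 CPM) had the next smallest p and did not pass either (adjusted p = 0.25 each).

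At the later times most of the 4 h calls kept their direction. Of the 25 genes, 24 were below 0 at 8 h, with 7SK as the exception (0.20), and 25 at 12 h. Their median was -1.40 at 4 h in the 12-library fit, -0.63 at 8 h and -1.26 at 12 h. The effect was smaller at 8 h than at 4 h in 25 of 25 and smaller at 12 h in 18 of 25. Since the genes were chosen for their values at 4 h, larger sizes at that time are built in. EGR1 was at -3.53 ± 0.28 at 4 h, -0.88 ± 0.22 at 8 h and -1.72 ± 0.23 at 12 h. CCL4 (-2.73, -2.02 and -3.17) and CD83 (-1.40, -1.05 and -1.97) were lowest at 12 h, while MYC (-1.13, -0.31 and -0.51) and NR4A1 (-1.18, -0.22 and -0.57) were lowest at 4 h. Of the 170 lower genes, 151 were below 0 at both later times, as were 35.1% of all tested genes. Of the 132 higher genes, 127 were above 0 at both, against 39.1%.

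A test of the effect at 4 h against the mean of 8 and 12 h passed for 0 genes (0%; edgeR's quasi-likelihood test, 301 genes at an unadjusted p under 0.05). The smallest adjusted p was 0.079, for EGR1, with a difference of -2.23 on the log2 scale. The next by p were 7SK (-2.35, adjusted p = 0.38), TNF (-1.85), KIF26B (1.21), RBM20 (-1.27) and EBI3 (1.05), the last 4 each at an adjusted p of 0.9999. EGR1, 7SK and EBI3 passed with the length trend removed (adjusted p = 0.0049, 0.0061 and 0.036). With no filter on low counts, all of the genes named here were among those that passed. Without the libraries of 8 h ibrutinib and 12 h SPX5551 the differences of EGR1 and 7SK were -2.28 and -2.67. That fit has no spread at 8 and 12 h and takes it from the 4 h libraries alone, so it cannot test the difference further.

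**Figure D4:**
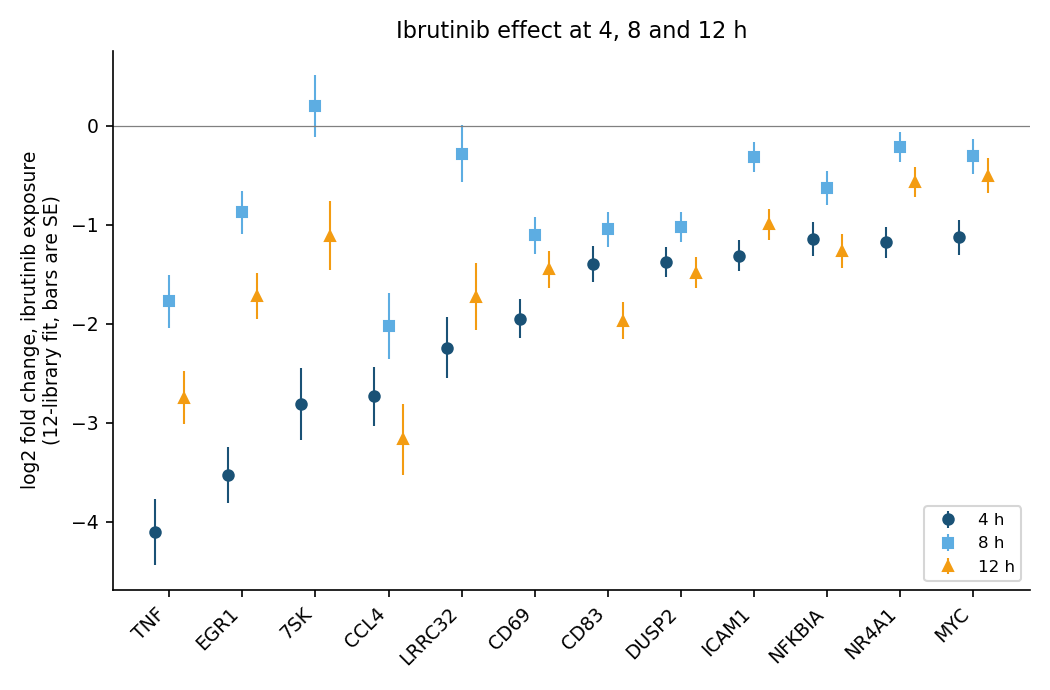
Log2 fold change with ibrutinib exposure (y axis, 12-library fit, bars are SE) at 4 h (circles), 8 h (squares) and 12 h (triangles) for 12 of the 25 genes. All 12 genes lie below 0 at 4 h and 12 h and 11 at 8 h, with 7SK at 0.20, and EGR1 goes from -3.53 to -0.88 and -1.72.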

How the data were processed

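Transcripts were measured in 4 REC1 libraries at 4 h, with the 8 and 12 h libraries used for spread and comparison. Per the labels' protocols, poly(A) RNA was selected, libraries were made with a directional kit and sequenced on a NextSeq2000. The labels also name the molecule as genomic DNA, which that protocol contradicts. Per the submitters' processing notes, BWA and hg38 were used. Which counting tool, annotation release and strand setting were used is not stated in the sources used here, so reads of antisense or overlapping genes cannot be told apart. The authors deposited whole-number counts per Ensembl gene, with no sign of normalization, and a table of log2 CPM whose scaling is not given. The deposited log2 values served only for an alternative with limma-trend. Counts carry more than counting error, since no molecular identifiers marked copies. The 4 libraries differed by a chi-square of 9.49 to 19.6 per degree of freedom, so none repeated another.

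Columns were given to samples by their headers. Symbols came from a list of gene names, or from GENCODE 29 where that had none, and covered 93.8% of 60483 identifiers. GENCODE 29 gave exon lengths for 99.4% of the tested genes. In edgeR 4.0.16 (R 4.3.3), filterByExpr kept 13782 genes holding 99.9% of the counts. Counts were scaled by TMM and tested with the quasi-likelihood F-test of ibrutinib exposure with SPX5551 exposure as a block, adjusted over all genes (Benjamini-Hochberg, 0.05). The biological coefficient of variation was 0.097, and the prior degrees of freedom were 93.0 beside 1 residual. The 12-library fit had time, time by SPX5551 and time by ibrutinib as terms (0.123, 12.6 and 3). SE was taken as |log2 fold change| over the square root of F. Pair differences are log2 CPM with a prior count of 2. Scripts were tested on simulated data. DESeq2 1.42.0, limma 3.58.1 and other scalings, filters and left-out libraries were alternatives.

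The comparison, gene lists and rules were chosen with earlier results of these data known. Named genes were, among passing genes with 1 sign in both pairs and a mean log2 CPM of 2 or more, the 15 largest changes per direction, up to 4 members per list by p, 5 per difference test, and the drug targets. Others, including low-abundance members of the 25, were named after their values were seen.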

Additional observations from a re-analysis of the deposited data

Results flagged for a closer look

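Genes whose ibrutinib effect differed between the pair without SPX5551 and the pair with it were RPS3AP26 and MRPL12. For RPS3AP26 the effect of ibrutinib was -4.15 in the ibrutinib minus DMSO pair and -0.36 in the combination minus SPX5551 pair, an interaction of 3.81 on the log2 scale (adjusted p = 0.0081, edgeR's quasi-likelihood test). For MRPL12 the effects were -1.01 and 3.17, an interaction of 4.30 (adjusted p = 0.0081). Each value rests on 1 library per treatment. RPS3AP26 is a processed pseudogene, and reads may be shared with its parent gene.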

How the results depend on the processing

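Against 170 genes lower and 132 higher with ibrutinib exposure at 4 h, the counts were 62 and 13 with the size factors of DESeq2, 36 and 8 with library size only, 33 and 1 with no SPX5551 block, 25 and 0 with the spread of all 12 libraries, 31 and 0 with DESeq2, 72 and 10 with limma-trend on the deposited log2 CPM, and 20 and 0 with the length trend removed. With no filter on low counts 67 were higher. With columns given by the descriptions, exposed and unexposed change places and the block changes, and 46 were lower and 101 higher. Leaving out each library gave 15 to 18 lower and 0 to 9 higher. Counts stayed within 1.5 times with limma-voom (163 and 130), at least 1 CPM in 2 libraries (162 and 116) and a bias-adjusted quasi-likelihood fit chosen after seeing the data (193 and 161). The counts also did so in the 12-library fit less the libraries of 8 h ibrutinib and 12 h SPX5551 (136 and 161). The spread of that fit is that of the 4 h libraries alone. Across 16 settings, 6 lower genes were called in every one (TNF, EGR1, CCL4, CD69, DUSP2 and ICAM1) and 0 higher genes. The cause of these shifts was not tested.

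For 4 h against later times, where 0 genes passed, 10 passed with no filter on low counts and 3 with the length trend removed. Without the libraries of 8 h ibrutinib and 12 h SPX5551 that test has no spread at 8 and 12 h. For the interaction at 4 h, where 2 passed, 0 did with library size only, 9 with no filter and 8 with the length trend removed, and the fit without those 2 libraries could not be made. Genes past the threshold in both pairs were 49 lower and 12 higher at 2-fold and 112 and 59 at 1 CPM in 2 libraries, against 199 and 110. With a 4 h library left out, IKZF1 ranged from -0.79 to 0.032, above 0 without SPX5551 (0.025) or the combination (0.032), and MT-ATP8 from -1.33 to 0.35, above 0 without DMSO (0.33) or ibrutinib (0.35). The values without SPX5551 and without the combination are the same comparison, as are those without DMSO and without ibrutinib.

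The labels carry no replicate numbers, so the pairs rest on SPX5551 exposure, the block of the 4-library fit. Transcripts with few counts, such as EGR3, have wide intervals.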
